A study of Mus musculus with 18 samples.

Results

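The genes described here are 10 genes of arginine and nitric oxide metabolism, chosen by name from the 22852 gene symbols in the count files: the transporter gene Slc7a2, the nitric oxide genes Nos2, Gch1, Ass1 and Asl, the arginase genes Arg1 and Arg2, and the polyamine genes Odc1, Srm and Sat1. Their mRNA was counted by RNA-Seq in 18 cultures of bone marrow-derived macrophages (BMDMs) from C57BL/6 mice, 3 biological replicates in each of 6 groups. BMDMs are macrophages grown from marrow in culture, here for 7 days with medium conditioned by L929 cells, so the cells were exposed to lipopolysaccharide (LPS), the bacterial wall component sensed by Toll-like receptor 4, outside the animal. How many mice stood behind each replicate is not given in the sources used here.

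Unstimulated BMDMs received neither agent. LPS-primed BMDMs received 100 ng/ml LPS for 24 h. LPS-tolerant BMDMs received the same priming and then 10 ng/ml LPS for 3 h, and LPS-stimulated BMDMs received 10 ng/ml LPS alone, for 3 h in the treatment scheme of the study. The LPS-primed + carboplatin and LPS-tolerant + carboplatin groups were in addition given 25 µM carboplatin, a platinum drug that damages DNA, from 1 h ahead of priming. LPS-tolerant and LPS-primed cells therefore differed in the second LPS dose, in the time of harvest and in a change to fresh medium that came with the second dose, and the single dose and the priming differed in both dose and duration.

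Macrophages use arginine in competing ways. Inducible nitric oxide synthase turns it into nitric oxide and citrulline with tetrahydrobiopterin as a cofactor, and argininosuccinate synthase and lyase rebuild arginine from the citrulline. Arginases instead cleave arginine to urea and ornithine, from which ornithine decarboxylase starts the polyamines putrescine, spermidine and spermine. Nitric oxide synthase is a classic LPS-induced enzyme of the mouse macrophage, while arginase 1 is best known from macrophages exposed to IL-4.

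All 8 macrophage markers examined had counts in all samples. Of 34 markers of other cell types, in 7 lists, 15 had no count in any sample, and every mast cell and basophil marker was at 0. The 5 stromal markers, none of them at 0 throughout, summed to between 0.088 and 0.683 CPM (counts scaled for library size) in unstimulated samples, against 4.32 to 8.56 in LPS-primed, 5.44 to 9.07 in LPS-tolerant and 2.18 to 5.29 in LPS-stimulated samples. That low level moved with LPS, and its part in the results was not tested. Gene counts totalled 6869667 to 14708099 read pairs a sample. In bulk RNA a lower value can reflect fewer cells that express a gene or less RNA per cell, and these cannot be told apart.

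The genes called changed were not the same for priming and for the single dose, which were not tested against each other. Priming raised 6 of them, Arg1, Arg2, Nos2, Ass1, Slc7a2 and Gch1, and lowered Sat1, where 12.1% of the 11305 genes tested rose and 13.1% fell. The single low dose also raised 6, Arg2, Nos2, Slc7a2, Odc1, Gch1 and Srm, and lowered Sat1, with 24.3% of all genes rising and 26.9% falling. The median log2 fold change (log2FC) of the 10 genes was 2.97 with priming and 2.88 with the single dose, against -0.0236 and -0.0944 over all genes tested. The 10 genes were chosen with earlier results of these data known. Their counts and medians beside those of all genes, here and below, are therefore a description and not a test. Both comparisons use the same unstimulated samples. With the replicate number as a block, priming raised 7 and lowered 1 of the 10 genes (18.9% and 19.8% of all genes), and the single dose raised 7 and lowered 2 (29.5% and 33.8%). The block added Odc1 to the genes raised by priming, and Ass1 to those raised and Asl to those lowered by the single dose. A gene was called changed at an adjusted p under 0.05 in edgeR's quasi-likelihood test, adjusted over all genes tested, with no limit on log2FC. All 10 genes passed the filter on low counts.

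Compared with LPS-stimulated BMDMs, LPS-tolerant BMDMs had higher Arg1 and Ass1 and lower Odc1, Gch1 and Srm, 2 genes up and 3 down, where 16.2% of all genes were higher and 18.3% lower. The replicates of equal number varied together, and with the number as a block the split became 4 up and 4 down, adding Nos2 to the lower genes and Asl and Sat1 to the higher, while the shares of all genes grew to 22.9% and 24.7%. Compared with LPS-primed BMDMs they had higher Odc1 and Gch1, 2 up and 0 down, against backgrounds of 3.60% and 2.71%. With the block this became 3 up and 2 down, adding Slc7a2 above and Arg2 and Nos2 below, while the shares of all genes grew to 9.67% and 8.32%. The median log2FC of the 10 genes was -0.30 against LPS-stimulated and 0.30 against LPS-primed cells, beside 0.00258 and -0.0135 over all genes. With the limits of the study, an absolute log2FC above 2 and an adjusted p under 0.05, priming changed 5 of the 10 where 7.47% of all genes passed, and LPS-tolerant differed from LPS-stimulated cells in 2 where 8.04% passed.

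**Figure D1:**
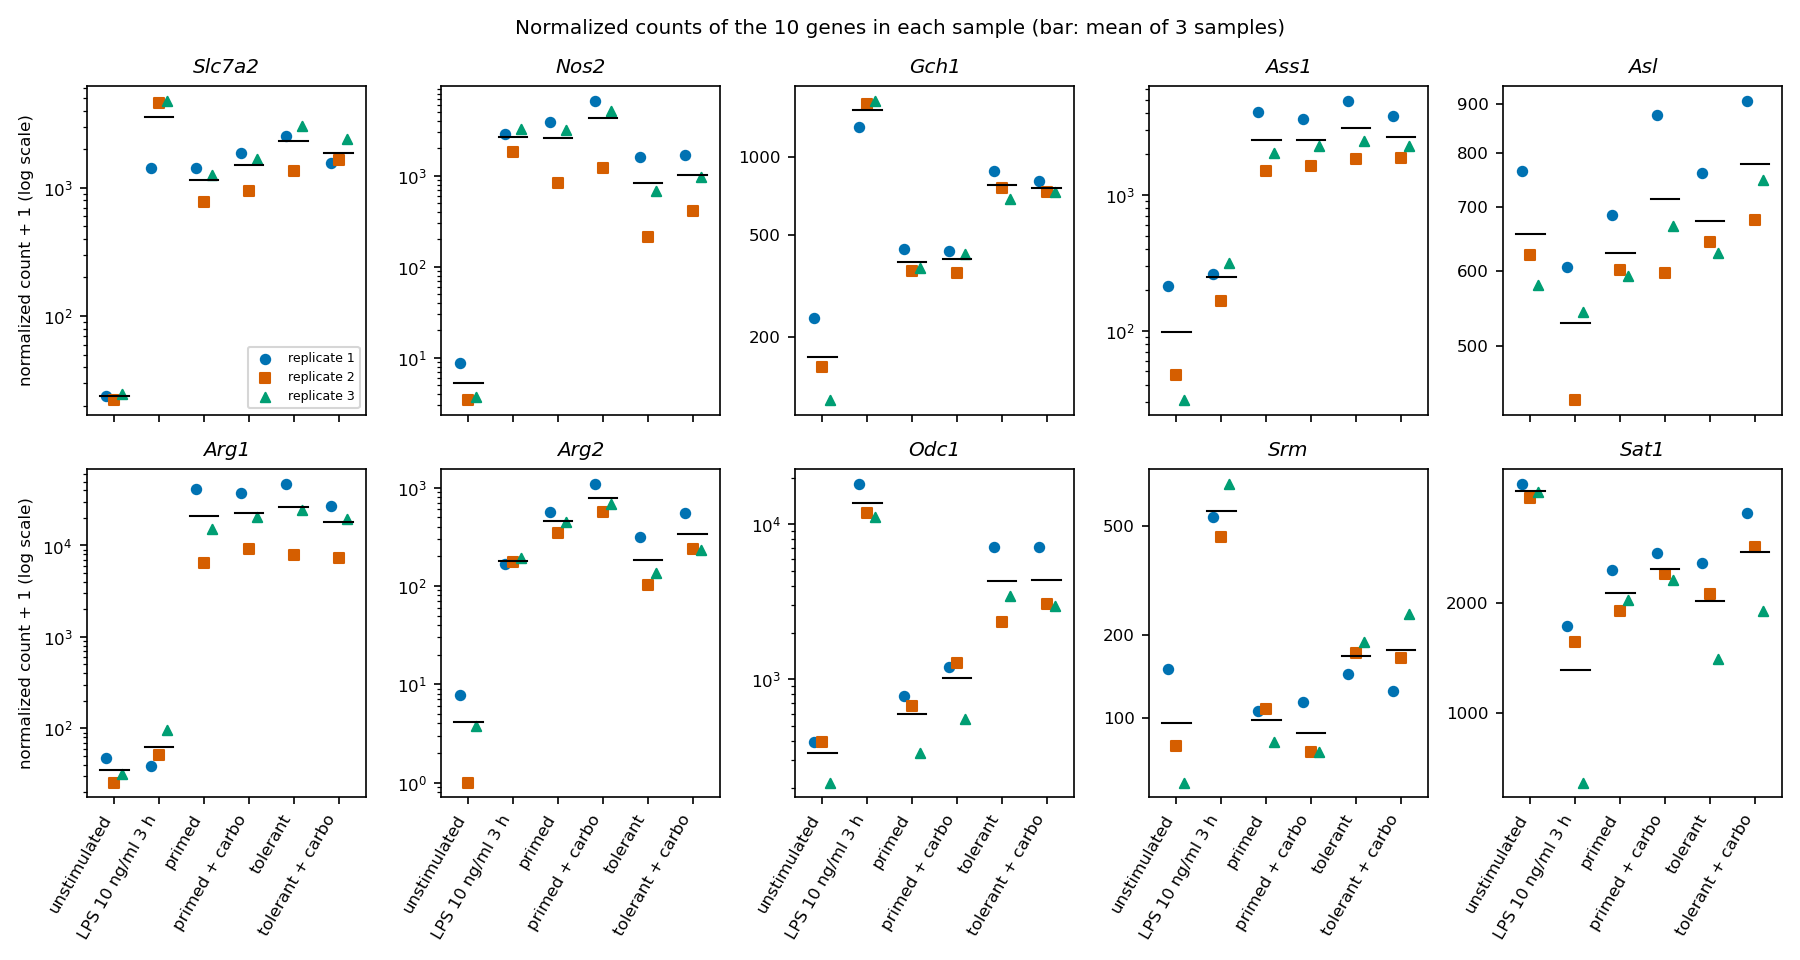
Normalized counts plus 1 (log axis) of the 10 genes in each of the 18 samples, by group, with a marker for each replicate number and a bar at the mean of 3. Arg1 lies between 24.58 and 95.63 in unstimulated and LPS-stimulated samples and at 6441 or more in every sample of the primed groups, whereas Odc1 peaks in LPS-stimulated samples at 11084 to 18236.

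**Figure D2:**
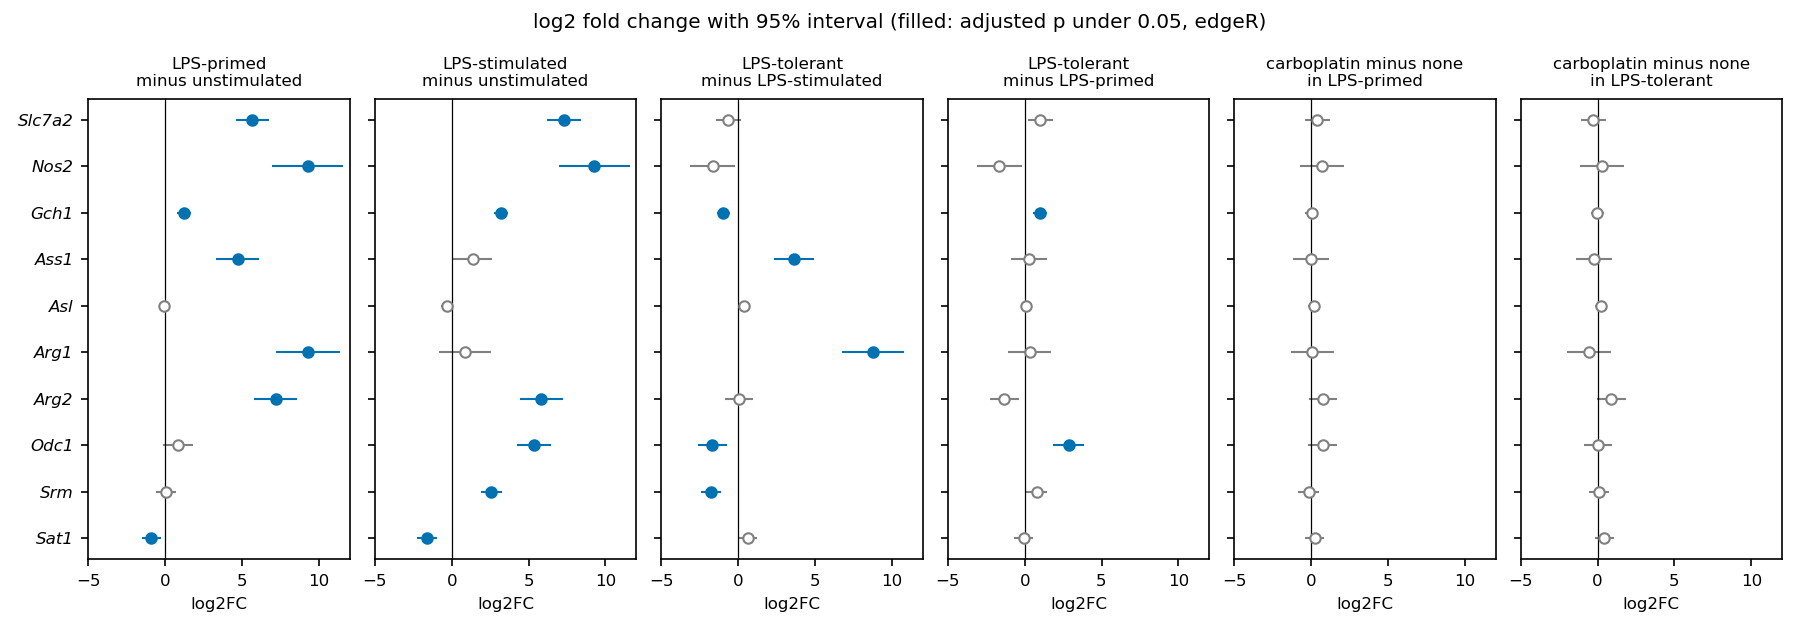
log2FC of each gene (horizontal axis) with its 95% interval in 6 comparisons, filled where the adjusted p was under 0.05 in edgeR's test. Filled points lie on both sides of 0 in the first 3 panels, only above 0 for LPS-tolerant minus LPS-primed (Odc1 and Gch1), and the panels for carboplatin hold 0 filled points.

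Upstream sequence is shown for the 3 LPS-raised genes that the RefSeq table of promoters holds, Ass1, Odc1 and Gch1, because these rose in different settings: Ass1 with priming, Odc1 with 10 ng/ml LPS, and Gch1 with both. The table, which uses GRCm38.p6 and not the GRCm39 build of the counts, held 4 of the 10 genes, the other being Sat1. Each run is read 5′ to 3′ on the gene's strand and ends just before the gene's start. For Odc1 the run ends at an outer annotated start, 65 bases short of the start the window is built on. Capitals mark letters of the motifs searched for on both strands: the E-box CACGTG, the cyclic AMP element TGACGTCA, the TATA box TATAAA, the interferon gamma-activated element TTCNNNGAA, the GC box GGGCGG and the NF-κB consensus.
Ass1, chr2:31470020-31470269, plus strand: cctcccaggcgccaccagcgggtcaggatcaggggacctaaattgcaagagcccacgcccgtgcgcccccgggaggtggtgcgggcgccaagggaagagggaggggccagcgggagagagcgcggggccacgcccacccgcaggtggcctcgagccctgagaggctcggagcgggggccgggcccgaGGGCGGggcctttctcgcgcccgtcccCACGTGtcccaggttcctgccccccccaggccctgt
Odc1, chr12:17544623-17544807, plus strand: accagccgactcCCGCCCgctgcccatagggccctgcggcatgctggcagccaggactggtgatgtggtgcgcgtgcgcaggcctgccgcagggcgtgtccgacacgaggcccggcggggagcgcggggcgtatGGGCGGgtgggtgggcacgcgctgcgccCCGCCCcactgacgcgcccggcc
Gch1, chr14:47189414-47189663, minus strand: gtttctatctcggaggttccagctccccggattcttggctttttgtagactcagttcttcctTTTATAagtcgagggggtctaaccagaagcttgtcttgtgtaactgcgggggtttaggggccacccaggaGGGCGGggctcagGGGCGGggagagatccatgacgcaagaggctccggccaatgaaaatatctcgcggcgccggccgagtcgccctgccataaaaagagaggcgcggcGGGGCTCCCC
In the Ass1 run the letters of an E-box lie 36 to 31 bases upstream of the start and a GC box lies 63 to 58 bases upstream. The Odc1 run holds 3 GC boxes. The Gch1 run ends in letters of the NF-κB consensus, 10 to 1 bases upstream, and holds 2 GC boxes and a TATA box on the opposite strand 188 to 183 bases upstream. No marked motif overlaps another. Among 32851 RefSeq windows of 250 bases, 6.02% held the E-box, 1.55% the cyclic AMP element, 12.4% the TATA box, 7.02% the interferon gamma-activated element, 32.7% the GC box and 7.25% the NF-κB consensus on either strand, so these matches are descriptions of letters and not of binding.

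Slc7a2 encodes a cationic amino acid transporter through which macrophages take up arginine (chr8:41315431-41375345, plus strand, GRCm39). Its normalized counts, which are counts brought to 1 common scaled library size of 9311662, were 22.94, 21.3 and 23.63 in the 3 unstimulated samples. They were 1416, 769.1 and 1257 in LPS-primed samples, 2533, 1351 and 3039 in LPS-tolerant samples, and 1430, 4591 and 4763 in LPS-stimulated samples. All LPS-exposed samples stood far above the unstimulated ones, and replicate 1 of the LPS-stimulated group lay low, within the range of the tolerant group. Slc7a2 rose with priming (log2FC 5.66 ± 0.50 (SE), adjusted p = 2.73e-07, edgeR) and with the single dose (7.31 ± 0.53, adjusted p = 1.02e-08). The fold changes were 50.5 and 158. Between LPS-tolerant and LPS-stimulated samples the log2FC was -0.64 ± 0.38 (adjusted p = 0.216), and without replicate 1 of the LPS-stimulated group it was -1.02 (adjusted p = 0.0225, range 0.0225 to 0.855 over 17 alternatives). Against LPS-primed samples the log2FC of LPS-tolerant samples was 1.01 ± 0.39 (adjusted p = 0.14), with overlapping groups and all 3 pairs in the same direction. Its adjusted p with the block was 0.0486, the lowest of a range that reached 0.637.

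Nos2, the inducible nitric oxide synthase gene (chr11:78811613-78851080, plus strand), was nearly silent at rest and high after either LPS dose. Its normalized counts were 7.646, 2.458 and 2.726 in unstimulated samples, from 14 counts in all. They reached 3891, 835.2 and 3173 in LPS-primed samples and 2906, 1831 and 3282 in LPS-stimulated samples. These ranges overlapped, and both lay far above rest. Nos2 rose with priming (log2FC 9.26 ± 1.11, adjusted p = 8.09e-06) and with the single dose (9.28 ± 1.11, adjusted p = 2.96e-06). The ratios of the group totals to rest were 649 (95% interval 386 to 1187) and 613 (365 to 1122), intervals that cover counting error only.

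LPS-tolerant samples held less Nos2 in all 3 pairs, at 1631, 209.9 and 682.6 normalized counts. Each of them lay below every LPS-stimulated sample, while they overlapped the LPS-primed samples. Against LPS-stimulated samples the log2FC was -1.67 ± 0.70 and did not pass the test (adjusted p = 0.0757). With replicate number as a block it was -2.11 ± 0.29 (adjusted p = 1.03e-05), and without tolerant replicate 1 it was -2.59 (adjusted p = 0.019), in a range of 1.03e-05 to 0.437 over 17 alternatives. Against LPS-primed samples the log2FC was -1.65 ± 0.70 (adjusted p = 0.182), which the block turned into -1.77 ± 0.28 (adjusted p = 0.000337, range 0.000337 to 0.72).

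Gch1 encodes GTP cyclohydrolase 1, the first enzyme of tetrahydrobiopterin synthesis (chr14:47391346-47426915, minus strand). It formed a ladder over the 4 groups without carboplatin. Its normalized counts were 236.1, 152.4 and 113.6 in unstimulated, 439.2, 361.2 and 371.4 in LPS-primed, 881.3, 760.9 and 690.8 in LPS-tolerant, and 1306, 1614 and 1656 in LPS-stimulated samples. No 2 of these 4 groups overlapped. Gch1 rose with priming (log2FC 1.22 ± 0.21, adjusted p = 0.000271) and with the single dose (3.19 ± 0.22, adjusted p = 4.78e-09). It was higher in LPS-tolerant than in LPS-primed BMDMs (0.99 ± 0.20, adjusted p = 0.00677) and lower than in LPS-stimulated BMDMs (-0.97 ± 0.20, adjusted p = 0.00106). The difference from LPS-primed cells was lost without all samples numbered 2 (0.97, adjusted p = 0.152) or 3 (1.04, adjusted p = 0.13), in a range of 0.000122 to 0.152 over 17 alternatives. The NF-κB letters shown above lie directly upstream of this gene, and their part in these values was not tested.

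Ass1, argininosuccinate synthase, makes the committed step that returns citrulline to arginine (chr2:31352181-31410862, plus strand). Its normalized counts were 4040, 1480 and 2037 in LPS-primed samples and 4888, 1841 and 2465 in LPS-tolerant samples. They were only 260.1, 164 and 314.5 in LPS-stimulated samples. Unstimulated samples gave 212.2, 45.89 and 29.99, of which replicate 1 fell inside the LPS-stimulated range. Ass1 rose with priming (log2FC 4.72 ± 0.66, adjusted p = 4.22e-05) and was higher in the LPS-tolerant than in the LPS-stimulated group (3.64 ± 0.62, adjusted p = 0.000216). The fold changes were 26.4 and 12.5. With the single dose the log2FC was 1.36 ± 0.60 and missed the threshold (adjusted p = 0.0676). With the block it was 1.62 ± 0.32 (adjusted p = 0.00025), and without unstimulated replicate 1 it was 2.70 (adjusted p = 0.00124), in a range of 9.86e-05 to 0.478 over 17 alternatives. LPS-tolerant and LPS-primed samples overlapped (0.28 ± 0.55, adjusted p = 0.836).

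Asl, argininosuccinate lyase, completes that recycling (chr5:130040099-130058088, minus strand) and had the narrowest range of the 10 genes. Its 18 normalized counts lay between 437.3 and 906.1. The log2FC was -0.07 with priming (95% interval -0.435 to 0.303, adjusted p = 0.832) and -0.31 with the single dose (-0.683 to 0.0562, adjusted p = 0.146). The comparisons that passed with the block were the single dose (-0.31 ± 0.10, adjusted p = 0.014, range 0.00359 to 0.497) and LPS-tolerant against LPS-stimulated BMDMs (0.36 ± 0.10, adjusted p = 0.00824, range 0.00824 to 0.407). Scaling by library size alone, which moved the median log2FC of all genes to -0.431 for the single dose and -0.261 for priming, gave -0.65 for the single dose (adjusted p = 0.00359). Per kilobase of transcript, Ass1 was 0.0782 to 0.4195 times Asl in unstimulated samples and 3.729 to 9.698 times Asl in LPS-primed and LPS-tolerant samples.

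Arg1, the cytosolic arginase that forms urea and ornithine (chr10:24791118-24803817, minus strand), separated the primed groups from the others. Its normalized counts were 45.87, 24.58 and 30.9 in unstimulated samples and 38.17, 50.51 and 95.63 in LPS-stimulated samples. They were 41962, 6441 and 15116 in LPS-primed samples and 47248, 7962 and 24510 in LPS-tolerant samples. The first pair of groups overlapped, as did the second, and replicate 2 was lowest in each of the 4 groups that had been primed. Arg1 rose with priming (log2FC 9.29 ± 0.98, adjusted p = 1.97e-06) and was higher in the LPS-tolerant than in the LPS-stimulated group (8.75 ± 0.95, adjusted p = 2.46e-06). The fold changes were 628 and 431. After the single dose alone the log2FC was 0.87 (95% interval -0.843 to 2.58, adjusted p = 0.388), and between LPS-tolerant and LPS-primed BMDMs it was 0.33 (-1.08 to 1.74, adjusted p = 0.844). Both intervals span changes of more than 2-fold in one direction or both.

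Arg2, the mitochondrial arginase (chr12:79177524-79203075, plus strand), rose with either dose instead. Its normalized counts were 6.69, 0 and 2.726 in unstimulated samples, from 10 counts in all. They were 564.1, 345.2 and 451.1 in LPS-primed, 314, 101.1 and 134.9 in LPS-tolerant, and 164.6, 172.3 and 192.2 in LPS-stimulated samples. The LPS-primed group stood above the other groups without carboplatin. Arg2 rose with priming (log2FC 7.18 ± 0.66, adjusted p = 4.61e-07) and with the single dose (5.82 ± 0.67, adjusted p = 1.93e-06). The ratios of group totals to rest were 154 (95% interval 83.2 to 321) and 59.4 (32.1 to 125). LPS-tolerant samples lay below LPS-primed samples without overlap, at a log2FC of -1.32 ± 0.44 that missed the threshold (adjusted p = 0.0848). It passed with the block (-1.42 ± 0.25, adjusted p = 0.000931), by DESeq2 (-1.30, adjusted p = 0.0367) and without tolerant replicate 1 (-1.95, adjusted p = 0.0207), in a range of 0.000931 to 0.58. Vti1b, which overlaps Arg2 on the opposite strand, had 788 to 946 counts in the unstimulated samples in which Arg2 had 10 in all.

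Odc1, ornithine decarboxylase, sets the pace of polyamine synthesis (chr12:17594383-17601507, plus strand). Its highest counts followed the fresh 10 ng/ml dose. Normalized counts were 394.7, 392.5 and 214.5 in unstimulated, 773.7, 675.6 and 335.7 in LPS-primed, 7080, 2346 and 3463 in LPS-tolerant, and 18236, 11902 and 11084 in LPS-stimulated samples. The first 2 groups overlapped, and the other two stood apart from them and from each other. Odc1 rose with the single dose (log2FC 5.36 ± 0.53, adjusted p = 3.92e-07) and was higher in LPS-tolerant than in LPS-primed BMDMs (2.85 ± 0.47, adjusted p = 0.00159). The tolerant group lay below the LPS-stimulated group (-1.68 ± 0.45, adjusted p = 0.00788). The difference from LPS-primed cells was lost without all samples numbered 3 (2.71, adjusted p = 0.066, range 2.2e-08 to 0.066), and that from LPS-stimulated cells without those numbered 2 (-1.46, adjusted p = 0.102, range 3.13e-05 to 0.102). With priming the log2FC was 0.83 ± 0.45 (adjusted p = 0.205), which the block turned into 0.80 ± 0.27 (adjusted p = 0.0266, range 0.0266 to 0.452).

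Srm, spermidine synthase (chr4:148675940-148681792, plus strand), had 536.8, 454.6 and 710.8 normalized counts in LPS-stimulated samples and at most 187.4 in the other 3 groups without carboplatin. Unstimulated samples gave 150, 77.84 and 57.25 and LPS-primed samples 104.8, 107.1 and 80.65, with overlap. LPS-tolerant samples gave 143.1, 171.9 and 187.4. Srm thus rose with the single dose (log2FC 2.58 ± 0.32, adjusted p = 5e-06) and was lower after tolerance than after the single dose alone (-1.76 ± 0.31, adjusted p = 0.00031). LPS-tolerant samples lay above LPS-primed samples without overlap, at a log2FC of 0.78 ± 0.32 that did not pass (adjusted p = 0.16).

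Sat1, spermidine/spermine N1-acetyltransferase, begins the breakdown and export of polyamines (chrX:153996128-153999452, minus strand) and went the other way. Its normalized counts were 4220, 3856 and 4000 in unstimulated samples and lower in every other sample. They were 2457, 1899 and 2031 in LPS-primed, 2569, 2110 and 1403 in LPS-tolerant, and 1729, 1566 and 645.8 in LPS-stimulated samples. The latter 3 groups overlapped in part. Sat1 fell with the single dose (log2FC -1.62 ± 0.30, adjusted p = 0.000266) and with priming (-0.92 ± 0.29, adjusted p = 0.0286). The call with priming was lost on leaving out any of the 3 unstimulated samples or LPS-primed replicate 2 or 3, with an adjusted p between 0.062 and 0.0944, and the log2FC stayed between -1.16 and -0.83 over 17 alternatives. LPS-tolerant against LPS-stimulated samples gave 0.63 ± 0.29 (adjusted p = 0.112). That value passed with the block (0.65 ± 0.20, adjusted p = 0.013) and without LPS-stimulated replicate 1 (0.87, adjusted p = 0.0461), in a range of 0.013 to 0.396.

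Levels per kilobase, from one canonical transcript for each gene, show which of the 10 mRNAs led in each state. At rest Sat1 led, with a mean of 369.8 CPM per kilobase, and Nos2, Arg2 and Slc7a2 lay at 0.1096, 0.2317 and 0.3065. In LPS-stimulated BMDMs Odc1 led, at 638. In LPS-primed and LPS-tolerant BMDMs Arg1 led, at 1411 and 1771.

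The ratio of Arg1 to Nos2 per kilobase within a sample turned over between the single dose and priming. It was 0.0342, 0.0718 and 0.0758 in LPS-stimulated samples, so that Nos2 exceeded Arg1. It was 28.06, 20.07 and 12.4 in LPS-primed samples, and 75.38, 98.71 and 93.44 in LPS-tolerant samples. Unstimulated samples gave 15.61, 26.02 and 29.49, where Nos2 rests on 14 counts. These values placed the LPS-tolerant samples highest and the LPS-stimulated samples lowest, with no overlap between those groups or with any other group. The ratio of Odc1 to Sat1 was 0.0271 to 0.0514 in unstimulated, 0.0835 to 0.1798 in LPS-primed, 0.5619 to 1.393 in LPS-tolerant and 3.84 to 8.675 in LPS-stimulated samples. Each non-overlapping difference reached p = 0.1 in an exact two-sided permutation test of 3 against 3 samples, the smallest p this design allows, and 0.15 adjusted over 12 tests.

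**Figure D3:**
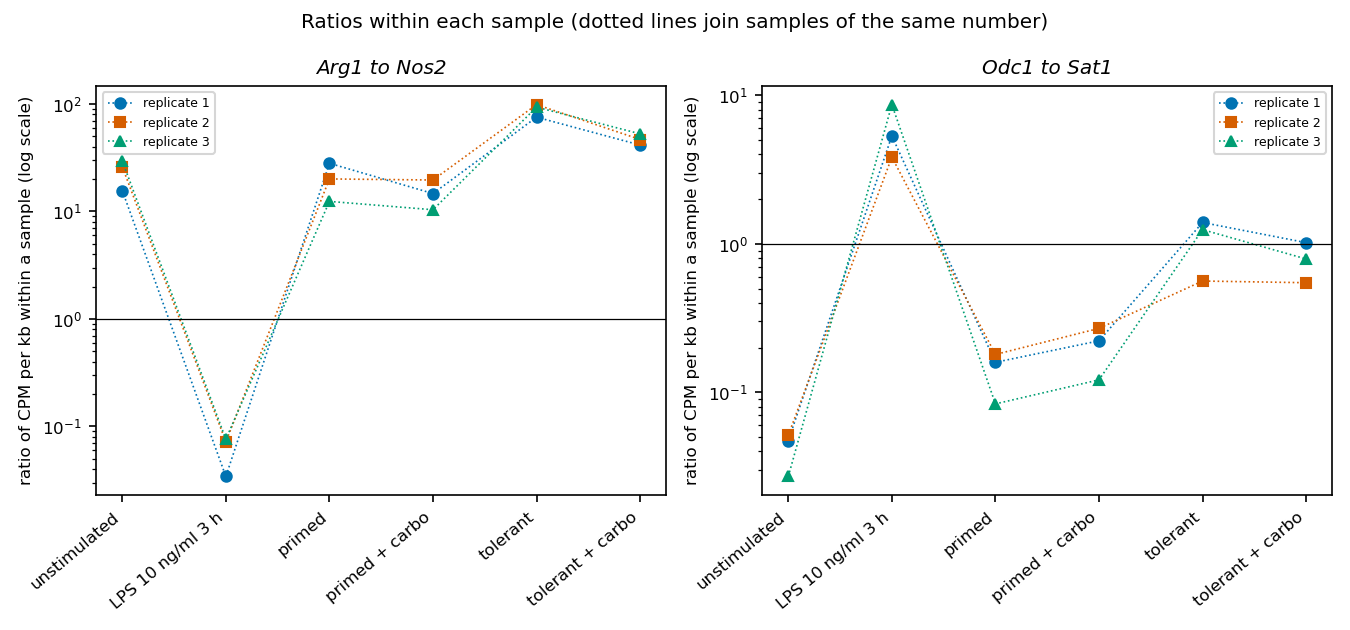
Ratio of CPM per kilobase (log axis) of Arg1 to Nos2 and of Odc1 to Sat1 within each sample, by group, dotted lines joining samples of the same replicate number. The Arg1 to Nos2 ratio is 0.0342 to 0.0758 in LPS-stimulated samples and 75.38 to 98.71 in LPS-tolerant samples, and the Odc1 to Sat1 ratio runs from 0.0271 to 8.675.

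Whether priming altered the response to the same 10 ng/ml dose was tested as the difference between the log2FC of LPS-tolerant over LPS-primed BMDMs and that of LPS-stimulated over unstimulated BMDMs. The difference, the response after priming minus that without, passed the test as negative for 6 of the 10 genes and as positive for 1. Over all genes tested it was negative for 13.3% and positive for 10.5%. The median difference was -2.00 over the 10 genes and 0.0619 over all genes tested. The difference was -10.93 ± 1.31 for Nos2 (adjusted p = 1.09e-05), -7.14 ± 0.81 for Arg2 (adjusted p = 5.83e-06) and -6.30 ± 0.62 for Slc7a2 (adjusted p = 1.31e-06). These 3 genes were already high in LPS-primed cells. Their levels in LPS-tolerant and LPS-stimulated BMDMs were not called different by edgeR without the block. The log2FC between those groups was 0.04 for Arg2 (adjusted p = 0.953), -1.67 for Nos2 and -0.64 for Slc7a2. For Nos2 and Arg2 the log2FC after priming was itself negative, at -1.65 and -1.32, neither passing the test without the block. For Odc1, whose LPS-primed and unstimulated samples overlapped, the difference was -2.51 ± 0.64 (adjusted p = 0.0083). It was -2.20 ± 0.29 for Gch1 (adjusted p = 2.5e-05) and -1.80 ± 0.44 for Srm (adjusted p = 0.00684). Sat1 fell with the single dose (-1.62) and had a log2FC of -0.07 after priming, a difference of 1.54 ± 0.42 (adjusted p = 0.0118). Without all samples numbered 2 the differences for Odc1, Srm and Sat1 missed the threshold (adjusted p = 0.103, 0.11 and 0.138), as did that for Srm without those numbered 3 (adjusted p = 0.0702). The lowest adjusted p over 22 alternatives was 4.12e-05 for Odc1, 0.000468 for Srm and 0.000283 for Sat1.

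The responses of the remaining genes differed by -0.54 for Arg1 (95% interval -2.75 to 1.67, adjusted p = 0.761), -1.08 for Ass1 (-2.80 to 0.635, adjusted p = 0.379) and 0.42 for Asl (-0.099 to 0.946, adjusted p = 0.247). With the block the difference was negative for 7 of the 10 genes and positive for 2, beside 19.0% and 17.2% of all genes. The value then passed for Ass1 (-1.34 ± 0.41, adjusted p = 0.0165, range 0.00327 to 0.859) and for Asl (0.42 ± 0.15, adjusted p = 0.0316, range 0.0316 to 0.594). The Ass1 value was -2.41 without unstimulated replicate 1 (adjusted p = 0.0213).

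**Figure D4:**
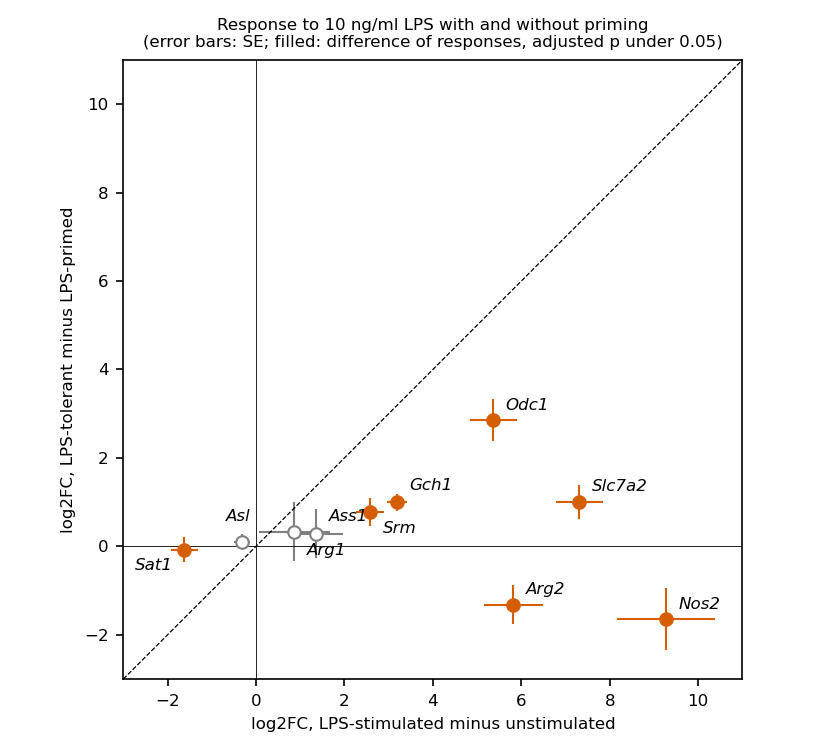
log2FC of LPS-tolerant over LPS-primed BMDMs (vertical axis) against that of LPS-stimulated over unstimulated BMDMs (horizontal axis), with SE bars and a dashed line of equal response, filled where the difference passed the test. Nos2 lies at 9.28 on the horizontal and -1.65 on the vertical axis, Odc1 at 5.36 and 2.85, and Sat1 alone among the filled points lies above the line.

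Carboplatin was compared with no carboplatin within LPS-primed and within LPS-tolerant BMDMs, and 0 of the 10 genes passed the test in either. The count was also 0 with DESeq2, 0 with the block and 0 at an unadjusted p under 0.05 in both. Over all genes DESeq2 called 121 in LPS-primed and 153 in LPS-tolerant cells. In edgeR's test 776 and 761 of 11305 genes had an unadjusted p under 0.05, so few of 10 genes would be reached at that rate. By the adjusted p of that test the shares of all genes were 0% higher and 0.372% lower in LPS-primed cells and 0.0177% higher and 0.407% lower in LPS-tolerant cells. With the block they were 0.239% and 1.53% in LPS-primed and 0.336% and 1.43% in LPS-tolerant cells. With the limits of the study for carboplatin, an absolute log2FC above 2 and an adjusted p under 0.25, 0.265% and 0.389% of all genes passed and 0 of the 10.

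Arg2 was the member with the smallest p in both. LPS-primed + carboplatin samples held 1093, 569.6 and 680.3 normalized counts of it, above every LPS-primed sample. LPS-tolerant + carboplatin samples held 550.7, 239.1 and 229.7, each above its numbered partner but overlapping the LPS-tolerant group. The log2FC was 0.78 (95% interval -0.114 to 1.68, adjusted p = 0.803) in LPS-primed and 0.90 (-0.0246 to 1.82, adjusted p = 0.754) in LPS-tolerant BMDMs. Neither interval leaves out a change of 2-fold or none at all.

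Nos2 had 6663, 1208 and 5156 normalized counts in LPS-primed + carboplatin and 1711, 407.6 and 959.4 in LPS-tolerant + carboplatin samples. Each value exceeded that of its numbered partner without the drug, and the groups overlapped. The log2FC was 0.72 (-0.722 to 2.16, adjusted p = 0.956) and 0.29 (-1.16 to 1.74, adjusted p = 1). Odc1 had 1202, 1279 and 553.5 in LPS-primed + carboplatin samples, at 0.77 (-0.181 to 1.71, adjusted p = 0.842), and 0.03 (-0.899 to 0.959, adjusted p = 1) in LPS-tolerant BMDMs. Arg1 had 37558, 9104 and 20541 in LPS-primed + carboplatin samples and 27272, 7316 and 19447 in LPS-tolerant + carboplatin samples. Its log2FC was 0.08 (-1.33 to 1.49, adjusted p = 0.995) and -0.56 (-1.97 to 0.85, adjusted p = 1).

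The narrowest intervals were those of Asl and Gch1. For Gch1 they ran from -0.384 to 0.465 in LPS-primed and from -0.454 to 0.383 in LPS-tolerant BMDMs, and for Asl from -0.183 to 0.556 and from -0.168 to 0.57. Sat1 had 3522, 2844 and 1899 normalized counts in LPS-tolerant + carboplatin samples, each above its partner, at a log2FC of 0.44 (-0.177 to 1.06, adjusted p = 0.94). The values for Slc7a2 were 0.38 and -0.29, for Ass1 -0.01 and -0.21 and for Srm -0.16 and 0.07, in LPS-primed and LPS-tolerant BMDMs. The effect of carboplatin itself did not differ detectably between both states for any of the 10, with 0% of all genes called higher and 0% lower. Over all genes 131 passed at an unadjusted p under 0.05, 0 of them among the 10, and DESeq2 called 0.

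The ratio of Arg1 to Nos2 was lower with carboplatin in LPS-tolerant samples, at 41.47, 46.71 and 52.75 against 75.38, 98.71 and 93.44. These groups did not overlap, and the geometric mean was 1.89 times lower with the drug (exact permutation p = 0.1, the smallest possible, 0.15 adjusted over 12 tests). In LPS-primed samples the ratio was 14.67, 19.61 and 10.37 with the drug, overlapping the samples without it (exact permutation p = 0.4, 0.48 adjusted).

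Other genes of the pathway were counted in 3 lists. Of 21 genes of arginine supply and other uses, 14 were tested, and priming raised 3 and lowered 1, where 12.1% of all genes rose and 13.1% fell. The raised genes were Slc7a7 (log2FC 0.63 ± 0.22, adjusted p = 0.0458) and Slc3a2 (0.97 ± 0.25, adjusted p = 0.00769), which encode the subunits of a y+L amino acid exchanger, and Slc25a15, the mitochondrial ornithine carrier (1.24 ± 0.37, adjusted p = 0.021). Gatm, which uses arginine for creatine synthesis, fell (-2.13 ± 0.32, adjusted p = 7.78e-05). The single dose raised 4 and lowered 2, where 24.3% of all genes rose and 26.9% fell, among them Slc7a7 (2.08 ± 0.23, adjusted p = 1e-06) and the exchanger gene Slc7a6 (1.29 ± 0.25, adjusted p = 0.000378). LPS-tolerant had 1 higher and 3 lower than LPS-stimulated BMDMs (all genes 16.2% and 18.3%), with Gatm at -2.84 ± 0.33 (adjusted p = 4.49e-06). Against LPS-primed BMDMs 0 differed (all genes 3.60% and 2.71%), or 0 higher and 3 lower with the block (all genes 9.67% and 8.32%). The median log2FC of the list lay between -0.225 and -0.0178 over these 4 comparisons.

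Of 19 genes for nitric oxide synthases, their regulators and tetrahydrobiopterin, 10 were tested. Priming raised 2, Gsr, glutathione reductase (2.40 ± 0.16, adjusted p = 1.33e-08), and Adh5, which reduces S-nitrosoglutathione (0.66 ± 0.16, adjusted p = 0.0058). It lowered 2, Nostrin, a trafficking partner of the endothelial synthase (-1.78 ± 0.24, adjusted p = 3.46e-05), and Ddah2, which is annotated as breaking down methylarginine inhibitors (-2.18 ± 0.31, adjusted p = 5.68e-05). For all genes the shares were 12.1% and 13.1%. With the block it lowered 4, beside 19.8% of all genes. The single dose raised 1, Gsr (0.78 ± 0.16, adjusted p = 0.000589), and lowered 5, beside 24.3% and 26.9% of all genes. The block made this 1 raised and 7 lowered, beside 29.5% and 33.8% of all genes. The lowered genes included Nosip, an interacting protein of nitric oxide synthases (-0.94 ± 0.14, adjusted p = 3.17e-05), Nostrin (-1.36 ± 0.24, adjusted p = 0.000166) and Pts, the enzyme after Gch1 in the cofactor pathway (-1.10 ± 0.23, adjusted p = 0.000654). Gch1 and Pts thus moved in opposite directions. LPS-tolerant had 3 higher and 1 lower than LPS-stimulated BMDMs (all genes 16.2% and 18.3%), and 0 differed from LPS-primed BMDMs (all genes 3.60% and 2.71%). The list's median log2FC was -0.262 with priming and -0.621 with the single dose.

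Of 17 polyamine genes, 16 were tested. Priming raised 1 and lowered 2, where 12.1% and 13.1% of all genes did so, and 3 and 2 with the block (18.9% and 19.8%). The single dose raised 4 and lowered 2, where 24.3% and 26.9% of all genes did so, and 8 and 2 with the block (29.5% and 33.8%). The raised genes included Eif5a, the protein that carries the spermidine-derived residue hypusine (1.07 ± 0.15, adjusted p = 2.29e-05), and Mtap, which salvages the methylthioadenosine that polyamine synthesis releases (1.08 ± 0.20, adjusted p = 0.000318). The lowered genes were Paox, polyamine oxidase (-2.58 ± 0.42, adjusted p = 7.02e-05), and Atp13a2, a lysosomal polyamine exporter (-2.27 ± 0.25, adjusted p = 1.3e-06). LPS-tolerant had 2 higher and 3 lower than LPS-stimulated BMDMs (all genes 16.2% and 18.3%). Against LPS-primed BMDMs 1 rose and 0 fell, where 3.60% and 2.71% of all genes did so. The raised gene was Azin1, the antizyme inhibitor that spares ornithine decarboxylase from degradation (1.27 ± 0.27, adjusted p = 0.0084). With the block 2 rose and 1 fell (all genes 9.67% and 8.32%). Carboplatin changed 0 of the 14, 10 and 16 tested genes of the 3 lists in either state. Over all genes it raised 0% and lowered 0.372% in LPS-primed cells, and raised 0.0177% and lowered 0.407% in LPS-tolerant cells. The 17 list genes that did not pass the filter on low counts were not tested. One of them, named after its values were seen, is Nos1, the neuronal nitric oxide synthase gene, with 6, 4 and 1 counts in LPS-primed samples and 0 in each LPS-primed + carboplatin sample. It also had 0 in each unstimulated and LPS-stimulated sample and 0, 0 and 1 in LPS-tolerant samples. The study lists Nos1 among the genes lowered by carboplatin in LPS-primed BMDMs at its limits for carboplatin.

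The patterns of the 10 genes over the 18 samples can be placed beside those of all genes tested by Pearson's r of log2 CPM, as a description in which samples of a group share their treatment. The 5 genes most like Arg1 were Csta2 (0.994), Clec4n (0.987), Bst1 (0.986), Slpi (0.986) and Pilra (0.985), of which Csta2 belongs to a cluster of similar stefin genes and is uncertain. Those most like Nos2 were Il1b (0.971), Lamc1 (0.955), Fas (0.952), Timp1 (0.951) and Ier3 (0.950). Those most like Odc1 were Pus1 (0.978), Sqstm1 (0.973), Itga5 (0.970), Bhlhe40 (0.967) and Tnf (0.966). Among the 10 genes the closest pair was Arg1 and Ass1 (0.958), followed by Arg2 and Nos2 (0.950).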

How the data were processed

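RNA from 18 BMDM cultures was sequenced as paired-end mRNA libraries. Per the labels and the methods of the study, the authors aligned reads with HISAT2 to GRCm39 and counted them per gene with HTSeq, and the labels also name DESeq2. Versions, annotation and the strand option are not given in the sources used here, so reads of genes that overlap on opposite strands may not be separated. The deposited values are raw counts per gene symbol, 1 file per sample. Rows that name no gene held 41.5% to 46.9% of each sample's reads and were left out. Intervals from counts cover counting error only.

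Counts were tested with edgeR 4.0.16 (R 4.3.3) by the quasi-likelihood test: TMM scaling, default expression filter (minimum count 10, total 15), 1 fit of 6 group means to all 18 samples, and Benjamini-Hochberg adjustment over 11305 genes. The SE was taken as the absolute log2FC over the root of the F statistic. The prior count was 0.125. On simulated counts the script was tested for recovery of known folds. Positions and transcript lengths came from GENCODE vM39 and upstream sequences from RefSeq (GRCm38.p6).

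The 10 genes and the gene lists were chosen with earlier results of these data known. All 10 are named, and of each other list at most 4 genes per comparison, those of smallest adjusted p that passed. For Arg1, Nos2 and Odc1 the 5 genes with the highest Pearson's r (prior count 2) are named.

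Titles number the replicates 1 to 3. Deviations from the group means correlated between samples of the same number in every pair of all 6 comparisons (lowest r 0.183), so the numbers were taken to pair the samples, from the data and not from a stated design. Alternatives were DESeq2 1.42.0, 2 other scalings, 2 other filters, the groups compared alone, the replicate block, the limits of the study and leaving out samples.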

Additional observations from a re-analysis of the deposited data

Results flagged for a closer look

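For 7 of the 10 genes the response to 10 ng/ml LPS differed between primed and unprimed BMDMs by a test of the difference itself, the edgeR contrast of LPS-tolerant over LPS-primed minus LPS-stimulated over unstimulated. Over all genes tested the difference passed as negative for 13.3% and as positive for 10.5%. Without all samples numbered 2 the count was 4 of the 10, given without the share of all genes in that fit. On the log2 scale the difference was -7.14 for Arg2, -10.93 for Nos2, -6.30 for Slc7a2, -2.51 for Odc1, -2.20 for Gch1, -1.80 for Srm and 1.54 for Sat1, with all 3 numbered pairs in the direction of the fit for each gene. Arg2, Nos2 and Slc7a2 were already high in LPS-primed BMDMs. Their levels in LPS-tolerant and LPS-stimulated BMDMs were not called different by edgeR without the block.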

How the results depend on the processing

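No gene's called value changed sign under any alternative that was run. For the replicate block, the number of the 10 genes that differed between LPS-tolerant and LPS-stimulated BMDMs was 8 instead of 5, and between LPS-tolerant and LPS-primed BMDMs 5 instead of 2. The block also added Odc1 with priming, Ass1 and Asl with the single dose, and Ass1 and Asl to the differences in response, and it changed no other call of the 10 genes. With the limits of the study those counts were 2 and 1. Leaving out a single sample gave 5 to 7 genes for LPS-tolerant against LPS-stimulated and 2 to 3 against LPS-primed BMDMs. Leaving out all samples of 1 replicate number, chosen after seeing the data, gave 0 to 3 genes for LPS-tolerant against LPS-primed BMDMs, 0 without the samples numbered 3 and 1 without those numbered 2, and 4 to 8 for the difference in response, 4 without those numbered 2. In these fits each group holds 2 samples, and the cause of the lower counts beyond fewer samples was not tested. For all fits with samples left out, the shares of all genes called are not given here. Their counts of the 10 genes therefore have no background beside them. Over the 10 genes and all comparisons, leaving out a single sample lost 5 calls, all of them Sat1 with priming, and gained 6, and leaving out a number lost 10 and gained 6. Without the expression filter Ass1 passed with the single dose (adjusted p = 0.0477, range 9.86e-05 to 0.478). Requiring 10 counts in every sample compared removed Arg2 and Nos2 from the comparisons with unstimulated BMDMs. Arg2 and Nos2 at rest are limited by depth, at 10 and 14 counts over 3 samples.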
